A study of Mus musculus with 30 samples.

Results

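Bmpr2, Acvr2a, Acvr2b, Tgfbr2, Acvr1 and Bmpr1a encode the type II receptors of the activin, bone morphogenetic protein (BMP) and transforming growth factor β (TGF-β) ligands and the main type I receptors for BMPs. They are described here as 6 genes, chosen by symbol from the 39017 genes of a count table, in the mouse insulinoma line βTC3, an insulin-producing cell line from a pancreatic islet tumour. Of the 6, 5 passed the filter on low counts and could be tested, and Tgfbr2 did not pass it.

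Poly(A) RNA was sequenced from 5 lines of βTC3 cells made with piggyBac plasmids, in triplicate wells of each line, so the replicates were wells of 1 line and p-values measured only the spread between such wells. The control, ALK7 and ALK7-DN lines carried the PB-33 backbone: a control construct, ALK7 (a type I receptor whose gene is Acvr1c) or a dominant-negative ALK7. The sh2 and sh1/2 lines carried the PB-31 backbone with 1 or 2 hairpins against ALK7, and the samples analysed had no hairpin-free PB-31 line. All cells, the controls included, received doxycycline (DOX) at 1 µg/ml for 24 hours, and 1 arm of each line received activin B at 50 ng/ml for 24 hours as well, which gave 10 groups of 3 libraries. Per the labels, the ALK7-DN wells with activin B and the sh2 wells with DOX alone were batch 2 and all others batch 1, so in these lines the effect of activin B and of batch cannot be told apart.

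A ligand of this family brings together a pair of type II receptors, which are constitutively active kinases, and a pair of type I receptors, which the type II receptors phosphorylate. The type I receptor then phosphorylates SMAD proteins: SMAD2 and SMAD3 for ACVR1B, ALK7 and TGFBR1, and SMAD1, SMAD5 and SMAD9 for ACVR1, BMPR1A and BMPR1B. ALK7 signals together with a type II partner, for which ACVR2A and ACVR2B serve in activin signalling, and in mouse beta cells BMPR1A is known for its part in insulin secretion.

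Promoter sequences of Acvr2a, Acvr2b, Bmpr1a and Bmpr2 are shown because the tests below read changes in transcript level. SMAD proteins bind short motifs in promoters. Acvr1, which was also called with activin B, is not printed. Its window held no SMAD motif and too few bases before an annotated exon. Tgfbr2, which could not be tested, is not printed either. All 6 genes matched a window in the RefSeq promoter table (GRCm38.p6), each of 300 bases that end shortly after the RefSeq start of transcription. Only bases before any annotated exon are printed, 5′ to 3′ on the gene's strand, and capitals mark the SMAD box (CAGAC or its reverse complement GTCTG) or the GC-rich SMAD motif (GGCGCC, which reads the same on both strands). The 250 bases of Acvr2a are at chr2:48813859-48814108 (plus strand), the 190 bases of Acvr2b at chr9:119401928-119402117 (plus strand), and the 109 bases of Bmpr1a at chr14:34502688-34502796 (minus strand). For Bmpr2, whose window lies inside an annotated first exon of GRCm38, only 28 bases around its motif are given, at chr1:59764163-59764190 (plus strand).
Acvr2a: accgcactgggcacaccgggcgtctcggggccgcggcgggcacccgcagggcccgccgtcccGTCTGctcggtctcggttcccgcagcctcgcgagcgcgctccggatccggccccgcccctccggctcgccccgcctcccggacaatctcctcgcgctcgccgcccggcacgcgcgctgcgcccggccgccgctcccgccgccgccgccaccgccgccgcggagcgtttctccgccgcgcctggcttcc
Acvr2b: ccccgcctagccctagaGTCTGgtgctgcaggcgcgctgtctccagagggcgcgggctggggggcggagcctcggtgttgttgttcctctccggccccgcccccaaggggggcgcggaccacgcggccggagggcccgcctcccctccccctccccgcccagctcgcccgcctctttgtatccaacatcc
Bmpr1a: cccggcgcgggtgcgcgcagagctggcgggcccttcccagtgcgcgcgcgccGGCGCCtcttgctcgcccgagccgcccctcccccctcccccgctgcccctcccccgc
Bmpr2: tccggcggccgGGCGCCgctgcctgccc

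In the whole windows of 300 bases, Acvr2a, Acvr2b and Tgfbr2 each held 1 SMAD box and no GC-rich motif, Bmpr2 and Bmpr1a each held 1 GC-rich motif and no SMAD box, and Acvr1 held neither. Among all 32851 windows of the same length, 49.6% held a SMAD box and 11.9% the GC-rich motif. No window of the 6 held TATAAA on either strand, against 13.6% of all windows. The GC content of the windows ran from 59.0% in Tgfbr2 and 59.3% in Bmpr2 to 80.3% in Acvr2a and 83.7% in Acvr1. These matches describe letters in a window and were not tested for binding.

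Library totals ran from 18904884 to 34740789 counts. The beta cell identity of the lines was visible in all 9 of 9 markers, with a summed level of 10183 to 20871 CPM (counts scaled to library size with TMM factors), while Prss2 and Amy2a5 of exocrine cells had no count in any library and Cdh5, Ptprc and Cd3e of endothelial and immune cells reached at most 0.142 CPM. With activin B the summed beta cell markers were lower (median 12640 CPM against 18945, with overlapping ranges), and the markers of other islet cells, nearly all Gcg, summed to 50.6 to 175 CPM with DOX alone and 8.65 to 36.6 with activin B. The part of these shifts in the results below was not tested. Acvr1c, the gene that the hairpins target, was lower in both hairpin lines under DOX alone, by 1.27 ± 0.11 on the log2 scale in sh2 (adjusted p = 1.05e-08, edgeR quasi-likelihood test with Benjamini-Hochberg adjustment, used for every adjusted p that names no other tool; ± is the standard error) and by 1.58 ± 0.11 in sh1/2 (4.16e-11). In ALK7 and ALK7-DN, Acvr1c differed from the control by -0.10 ± 0.10 (0.754) and -0.03 ± 0.10 (0.984), so gene-level counts did not show the constructs. In 3 libraries, sh1/2 DOX replicates 1 and 3 and control activin B replicate 2, log2 levels against the mean of all libraries ran down with gene GC content (Spearman's rho of -0.53, -0.58 and -0.62 across genes, against 0.21 in sh1/2 DOX replicate 2). In the other libraries rho ran from -0.34 to 0.46, so trends of a lesser size and of both signs were present there too. The 3 are called the libraries with the steepest GC trend, and results that rest on them are given without them as well. Without them the sh1/2 group with DOX alone keeps 1 library, replicate 2. Values of that group in this setting therefore rest on 1 library and hold no spread between its wells. Replicate 2 had a rho of 0.21 against the mean of all libraries and of 0.734 against the mean of its own group.

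Among type II receptors, Acvr2a was the most abundant transcript per length in every library. Levels of different genes are compared only as CPM per kilobase of merged exons. Over the 30 libraries Acvr2a (activin receptor IIA; GRCm38 chromosome 2, 48814109 to 48903269, plus strand) had a median of 7.76 CPM per kilobase and a range of 6.69 to 9.55. Bmpr2 (the BMP type II receptor; chromosome 1, 59763400 to 59879014, plus strand) had a median of 1.33, with a range of 0.584 to 1.70. Acvr2b (activin receptor IIB; chromosome 9, 119402118 to 119434995, plus strand) had a median of 0.354, with a range of 0.210 to 0.600. Of the summed per-length level of all type II receptor genes, Acvr2a made up a median of 81.5% (75.1% to 86.1%), Bmpr2 13.4% (7.28% to 17.0%) and Acvr2b 3.76% (2.18% to 6.74%), and Amhr2, the receptor of anti-Müllerian hormone, 1.13%. The depth behind Acvr2b was 21 to 84 counts a library, against 905 to 1570 for Acvr2a.

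Tgfbr2, the type II receptor of TGF-β (chromosome 9, 116084293 to 116175360, minus strand), was at or near 0. It had 27 counts in all, in 7 of the 30 libraries, and no count in the other 23. The most was 12 counts (0.520 CPM) in sh2 activin B replicate 1, followed by 7 counts (0.253 CPM) in sh1/2 DOX replicate 1, while the other replicates of both groups had 0 or 1. A count of 0 allows up to 3 counts, which is 0.0838 to 0.160 CPM depending on the library, a limit that covers counting error only. In the ALK7 line all 6 libraries were at 0. No difference between groups could be tested for this gene.

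Of the BMP type I receptors, Bmpr1a (BMP receptor IA; chromosome 14, 34410734 to 34503341, minus strand) had the highest per-length level of any receptor examined, with a median of 28.9 CPM per kilobase and a range of 23.9 to 34.9. Acvr1 (ALK2; chromosome 2, 58388644 to 58567157, minus strand) had a median of 6.84 and a range of 5.50 to 8.61. The other BMP type I receptors were low: Acvrl1 (ALK1), best known from endothelial cells, had a median of 0.272, and Bmpr1b had no count in 17 of 30 libraries. Among the receptors for activins and TGF-β, Tgfbr1 had a median of 21.3, Acvr1c 9.72 and Acvr1b 6.83 CPM per kilobase. Bmpr1a therefore made up a median of 38.8% of the summed type I level and Acvr1 9.07%. Of the reads counted for Acvr2a and Bmpr1a some could come from overlapping genes, since exons of Orc4 overlap 446 bases of Acvr2a and exons of Gm17110 290 bases of Bmpr1a on the opposite strand, and the strand setting of the counting was not given in the sources used here.

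**Figure D1:**
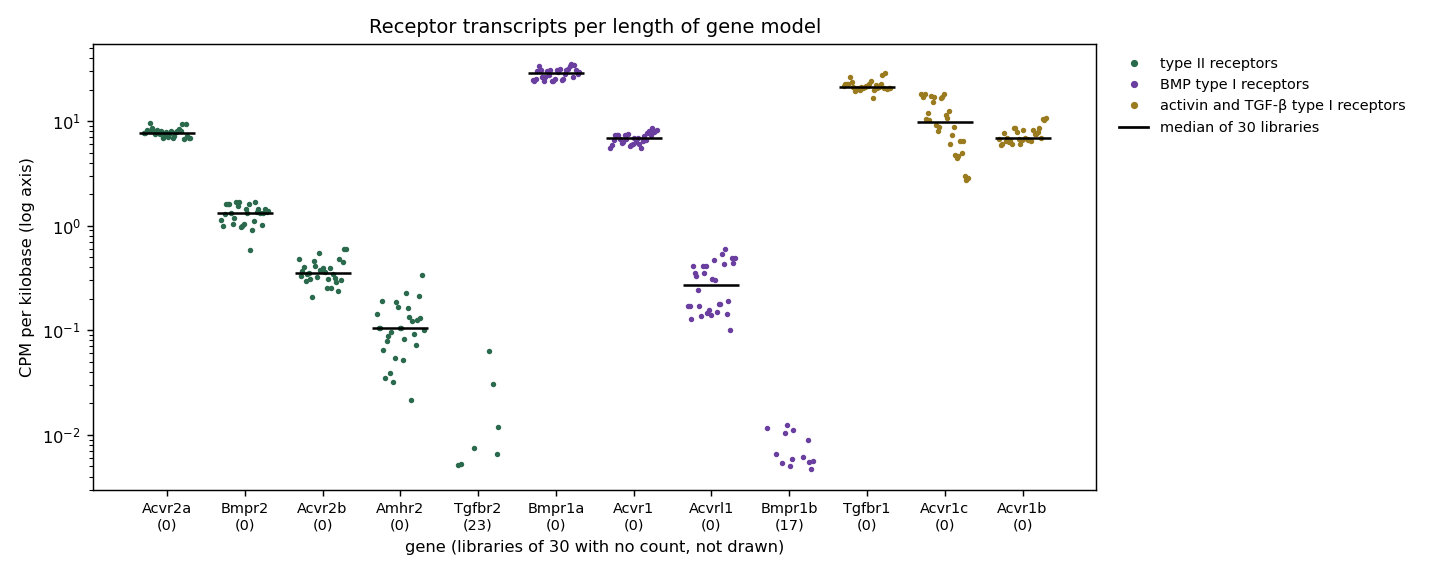
Level of 12 receptor genes in 30 libraries, in CPM per kilobase of merged exons on a log axis. Each point is a library, lines are medians above 0, and the number under each gene counts the libraries without a read, which are not drawn. Bmpr1a sits at the top (median 28.9), Acvr2a leads the type II receptors (7.76), and Tgfbr2 has points in only 7 libraries.

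The first comparison asked how activin B changed the receptor transcripts within each line. Bmpr2, Bmpr1a and Acvr1 were higher with activin B in control cells, by 1.42, 1.27 and 1.21 times, and Acvr2a and Acvr2b did not pass the test there. Of the 5 members tested, 3 rose and none fell in the control line, where 20.3% of all 15627 genes tested passed the threshold of 0.05 and 10.7% rose. In ALK7 1 of 5 passed the test in either direction (25.3% of all genes did), in ALK7-DN 2 rose (16.1% of all genes passed, 8.48% rose) and in sh2 3 (19.6% passed, 10.7% rose). In sh1/2, where 36.6% of all genes passed, 1 member rose (17.5% of all genes) and 1 fell (19.1%). The median log2 fold change of the type II receptor list (4 tested) in control cells was -0.002 and that of the BMP type I list (3 tested) 0.345, against -0.002 over all genes.

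Bmpr2 in control cells had 20.3, 17.9 and 23.0 CPM with DOX alone and 29.2, 29.2 and 28.7 with activin B. In the ALK7 line the values were 23.9, 18.5 and 21.3 against 30.5, 28.0 and 30.6, and in ALK7-DN they were 17.6, 17.8 and 18.8 against 26.2, 24.0 and 28.8. All libraries with activin B were higher than all libraries with DOX alone in each of these lines, with no overlap. In sh2 the values were 10.5, 16.2 and 20.1 against 30.1, 24.4 and 25.9, and in sh1/2 23.6, 18.1 and 23.6 against 26.2, 24.1 and 25.0, again without overlap. The log2 fold change of Bmpr2 was 0.51 ± 0.15 in control (adjusted p = 0.0162), 0.48 ± 0.15 in ALK7 (0.0171), 0.54 ± 0.15 in ALK7-DN (0.0117) and 0.78 ± 0.15 in sh2 (0.000390), and in sh1/2 it was 0.21 ± 0.15 (0.282). Because the arms did not overlap in any line, Bmpr2 was also higher with activin B in 15 of 15 pairs of same-numbered wells. This count adds nothing to the lack of overlap. Libraries of the arms did not overlap for 32.1% of all genes in control, 43.9% in ALK7, 32.4% in ALK7-DN, 38.2% in sh2 and 36.3% in sh1/2, and the sh2 value leans on DOX replicate 1, the lowest of all 30 libraries at 10.5 CPM. A correction for each library's GC trend, for which 98.9% of genes tested had a GC value, brought sh1/2 to 0.44 (adjusted p = 0.0122). The Bmpr2 call was lost without control DOX replicate 2 (0.42, adjusted p = 0.0911), without ALK7 DOX replicate 2 (0.39, 0.0995) or ALK7 activin B replicate 1 (0.46, 0.0541), and without ALK7-DN activin B replicate 3 (0.48, 0.0634).

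Bmpr1a, the most abundant of these receptors, had 156, 155 and 160.2 CPM in control cells with DOX alone and 190.4, 214 and 194 with activin B. In ALK7-DN it had 153, 154 and 159 against 194, 188 and 199, and in sh2 156, 159 and 179 against 196, 199 and 211. In these 3 lines every library with activin B stood above every library with DOX alone, and the arms did not overlap for 32.1% to 38.2% of all genes. In the ALK7 line the values were 169, 152 and 166 against 192, 177 and 194, also without overlap, as for 43.9% of all genes. In sh1/2 they were 222, 166 and 219 against 196, 178 and 188, where the DOX libraries lay on both sides of those with activin B and the 2 high ones were the libraries with the steepest GC trend. The log2 fold change was 0.35 ± 0.08 in control (adjusted p = 0.00210), 0.32 ± 0.08 in ALK7-DN (0.00507) and 0.30 ± 0.08 in sh2 (0.00771). It was 0.21 ± 0.08 in ALK7 (0.0561), a difference that passed the threshold with the wells paired by number within lines (0.21, adjusted p = 0.00880). In sh1/2 it was -0.11 ± 0.08 (0.276), and the sign turned to 0.12 with the GC correction (adjusted p = 0.0516). This rise passed the threshold with the GC correction and wells paired by number (0.12, 0.000957). Without the 3 libraries with the steepest GC trend, which leaves 1 sh1/2 library with DOX alone, the value was 0.18. Leaving out 1 library moved calls in ALK7, where it rose without activin B replicate 2 (0.25, adjusted p = 0.0471), in sh2, where the call was lost without DOX replicate 1 (0.26, 0.0521), and in sh1/2, where it fell without DOX replicate 2 (-0.23, 0.00305).

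Acvr1 had 26.8, 28.7 and 32.0 CPM in control cells with DOX alone and 35.7, 35.4 and 35.2 with activin B. In ALK7 it had 32.2, 29.7 and 30.5 against 35.4, 32.8 and 36.6, in ALK7-DN 27.9, 28.4 and 29.2 against 33.3, 30.5 and 33.6, and in sh2 29.4, 26.6 and 30.9 against 34.9, 32.2 and 36.8. The groups did not overlap in any of these 4 lines, as for 32.1% to 43.9% of all genes there, and the shifts were small, at most 1.21 times. In sh1/2 the values were 38.6, 35.5 and 41.6 against 38.3, 39.2 and 39.7, so the 3 libraries with activin B lay within the range of those with DOX alone. The log2 fold change was 0.28 ± 0.07 in control (adjusted p = 0.00541) and 0.26 ± 0.07 in sh2 (0.0100). It was 0.18 ± 0.07 in ALK7 (0.0626) and 0.19 ± 0.07 in ALK7-DN (0.0738), which passed the threshold with wells paired by number within lines (adjusted p = 0.0268 and 0.0317). In sh1/2 it was 0.02 ± 0.07 (0.856). A fit of only the 6 control libraries ended the call in control (0.28, adjusted p = 0.0711), and the call in sh2 was lost without DOX replicate 2 (0.20, 0.0832) or activin B replicate 3 (0.21, 0.0724), while in ALK7 it was gained without activin B replicate 2 (0.23, 0.0403).

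Acvr2a had 43.5, 43.9 and 46.6 CPM in control cells with DOX alone and 45.7, 54.3 and 49.2 with activin B, overlapping ranges whose top value came from the library with the steepest GC trend. Its log2 fold change was 0.15 ± 0.09 in control (adjusted p = 0.278), -0.03 ± 0.09 in ALK7 (0.886), 0.03 ± 0.09 in ALK7-DN (0.911) and 0.16 ± 0.09 in sh2 (0.264). With the GC correction and wells paired by number within lines, small rises passed the threshold in control (0.10, adjusted p = 0.0443) and sh2 (0.12, 0.0172). In sh1/2 Acvr2a had 53.0, 38.1 and 53.4 CPM against 41.0, 39.0 and 38.7, a fall of 0.28 ± 0.09 on the log2 scale (adjusted p = 0.0208) with overlapping libraries. The 2 high DOX libraries of sh1/2 were those with the steepest GC trend. The fall was larger without sh1/2 DOX replicate 2 (-0.43, 5.22e-05). It was not called with the GC correction (-0.02, adjusted p = 0.747) or in a fit of only the 6 sh1/2 libraries (-0.27, 0.192). Without the 3 libraries with the steepest GC trend, which leaves 1 sh1/2 library with DOX alone, the value was 0.06. The call was also lost without sh1/2 DOX replicate 1 (-0.20, 0.145) or 3 (-0.20, 0.152), or sh1/2 activin B replicate 2 (-0.27, 0.0626) or 3 (-0.27, 0.0649).

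Acvr2b, whose low counts gave standard errors of 0.24 to 0.26, had 1.88, 1.29 and 1.44 CPM in control cells with DOX alone and 1.57, 1.16 and 1.35 with activin B. In sh1/2 it had 0.940, 1.87 and 1.18 against 1.76, 2.35 and 2.35, with 1 DOX library inside the range with activin B. The log2 fold change in sh1/2 was 0.68 ± 0.24 (adjusted p = 0.0332), and in the other lines it ran from -0.36 ± 0.24 in ALK7-DN (0.403) to 0.45 ± 0.25 in ALK7 (0.216). The sh1/2 value was 0.49 (adjusted p = 0.0834) with the GC correction and 0.69 (0.137) in a fit of only the 6 sh1/2 libraries. It was 0.21 without the 3 libraries with the steepest GC trend, which leaves 1 sh1/2 library with DOX alone. It rose to 1.04 (0.00222) without sh1/2 DOX replicate 2, and lost its call without sh1/2 DOX replicate 1 (0.47, 0.196) or 3 (0.60, 0.126), or activin B replicate 2 (0.61, 0.101) or 3 (0.61, 0.0972).

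**Figure D2:**
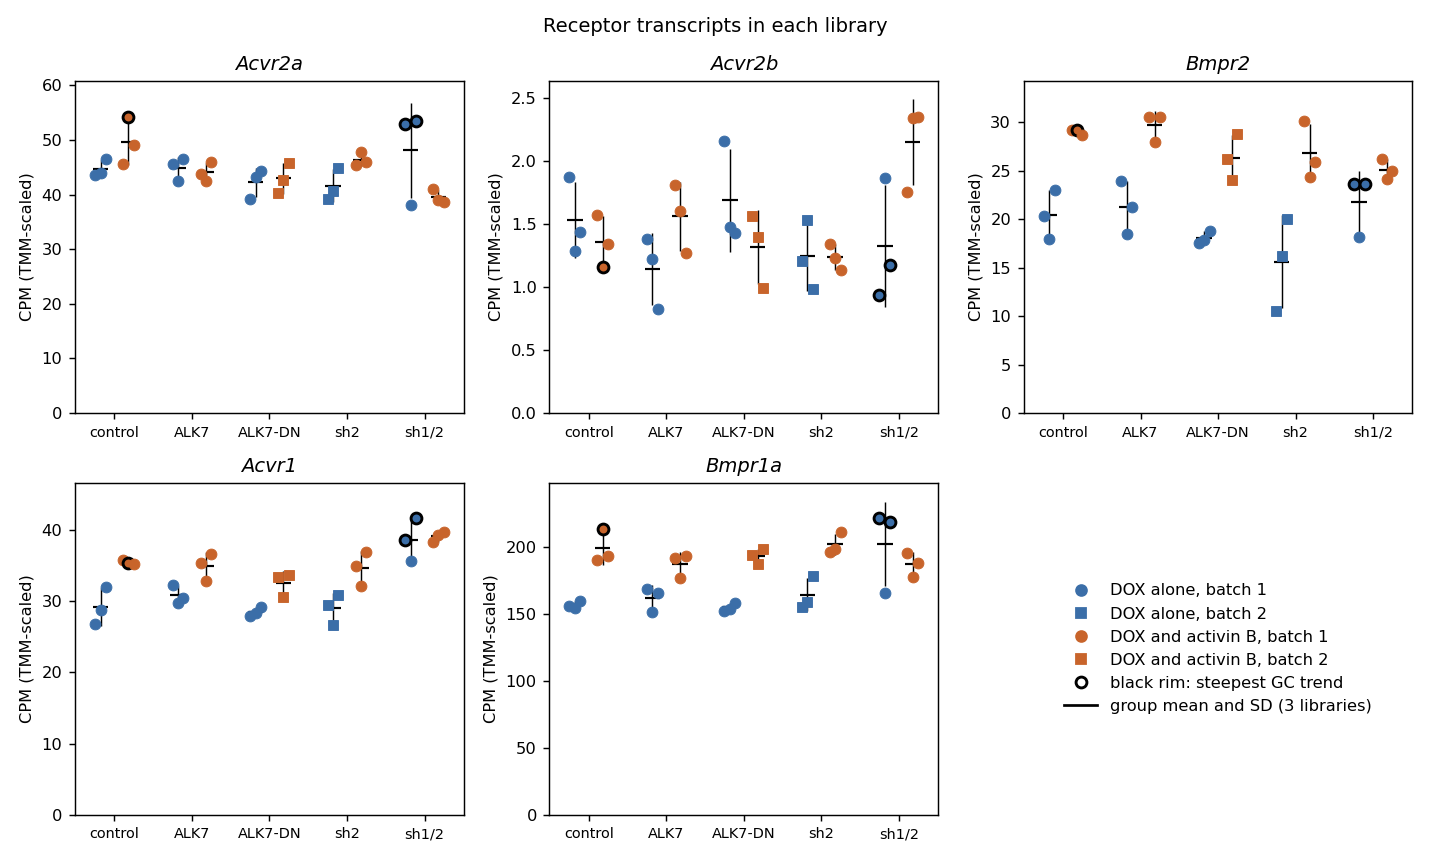
CPM of the 5 tested members in every library, by line, with DOX alone in blue and with activin B in orange. Squares are batch 2, black rims mark the 3 libraries with the steepest GC trend, and bars are group means with SD over 3 libraries. Bmpr2 with activin B stands above DOX alone in each line, and in sh1/2 the rimmed DOX libraries of Bmpr1a (222 and 219) and Acvr2a (53.0 and 53.4) stand above the third.

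**Figure D3:**
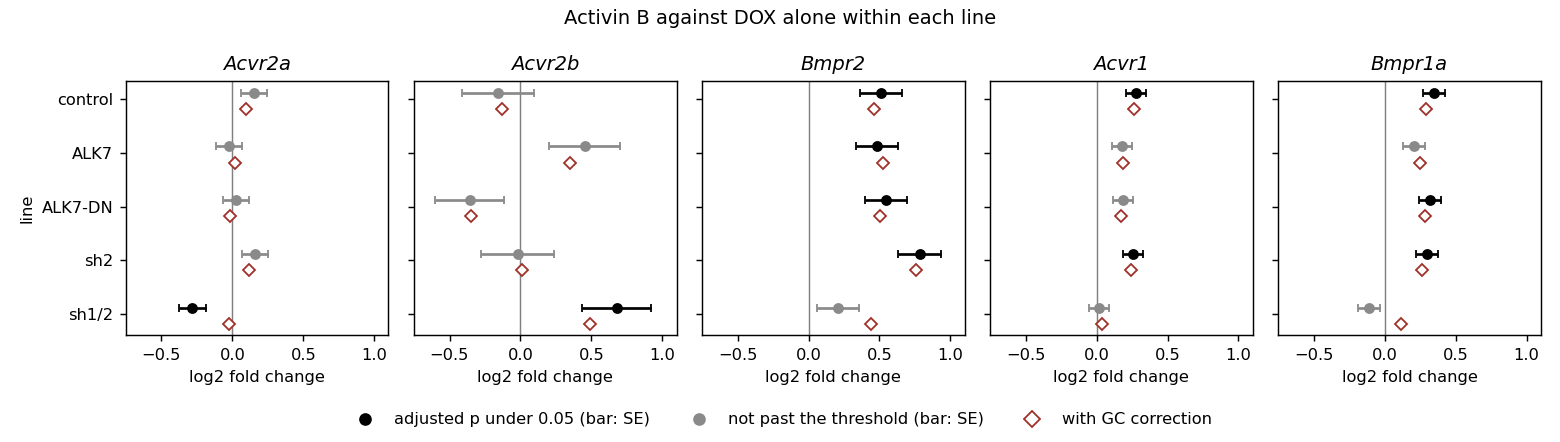
Log2 fold change of activin B against DOX alone for the 5 tested members in each line, with SE bars (black: adjusted p under 0.05, grey: not past it) and, as red diamonds, the value after GC correction. Bmpr2 is to the right of 0 in all 5 lines, and in sh1/2 the correction moves Acvr2a from -0.28 to -0.02 and Bmpr2 from 0.21 to 0.44.

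The control, ALK7 and sh1/2 lines had both arms in batch 1, and their mean response therefore does not mix treatment with batch. In that mean 3 of the 5 members rose, against 39.1% of all genes called and 19.4% higher: Bmpr2 by 0.40 ± 0.09 (adjusted p = 0.000545), Acvr1 by 0.16 ± 0.04 (0.00269) and Bmpr1a by 0.15 ± 0.05 (0.0115). Acvr2a was at -0.05 ± 0.05 (0.480) and Acvr2b at 0.32 ± 0.14 (0.0780). Acvr2b passed with wells paired by number within lines (0.33, adjusted p = 0.0120), and without control DOX replicate 1 (0.38, 0.0444) or sh1/2 DOX replicate 2 (0.44, 0.0110). Without the latter library Acvr2a was also called, at -0.10 (adjusted p = 0.0385). In an additive model of line, treatment and batch over all 30 libraries, where 40.6% of all genes were called, the common response was 0.50 ± 0.07 for Bmpr2 (adjusted p = 1.27e-06), 0.18 ± 0.04 for Acvr1 (8.54e-05) and 0.21 ± 0.05 for Bmpr1a (0.000515). Acvr2a was at 0.01 ± 0.05 (0.946) and Acvr2b at 0.13 ± 0.13 (0.474) there.

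The next comparison set each line against the control line with the same treatment. The ALK7 and ALK7-DN lines had no call among the 5 members in either arm. Under DOX alone their log2 differences from the control ran from -0.41 ± 0.26 (Acvr2b in ALK7, adjusted p = 0.515) to 0.16 ± 0.25 (Acvr2b in ALK7-DN, 0.956), and for Bmpr2, Acvr1, Bmpr1a and Acvr2a none was larger than 0.18 in size. At an unadjusted p, none of these 10 differences was under 0.05, while 2134 of 15627 genes were in ALK7 and 1319 in ALK7-DN. At the adjusted threshold 1.98% of all genes were called in ALK7 and 0.966% in ALK7-DN. DESeq2 gave no member call in these comparisons or with activin B either. Against ALK7, ALK7-DN under DOX alone had no member called (2.45% of all genes). There 1 of the 5 was under an unadjusted p of 0.05, Acvr2b at 0.57 ± 0.25 (adjusted p = 0.327), as were 2099 of 15627 genes. With activin B, Acvr2a stood at -0.21 ± 0.09 in ALK7-DN (0.390) and at -0.17 ± 0.09 in ALK7 (0.318), and Acvr2b at 0.20 ± 0.25 in ALK7 (0.685). Of all genes, 1.65% were called in ALK7-DN and 4.53% in ALK7. At an unadjusted 0.05, 1 of the 10 differences passed, that of Acvr2a in ALK7-DN. So did 1677 of 15627 genes in ALK7-DN and 2893 in ALK7. With the replicate block and GC correction together, the difference of Acvr2a in ALK7-DN was called, at -0.14 (adjusted p = 0.0300). The ALK7-DN wells with activin B were batch 2 and the control wells batch 1, so line and batch cannot be told apart there.

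In the sh1/2 line under DOX alone, 2 of 5 members were higher than in control cells, where 38.0% of all genes were called and 19.4% were higher. Acvr1 had 38.6, 35.5 and 41.6 CPM against 26.8, 28.7 and 32.0, with no overlap, as for 37.7% of all genes, and was higher by 0.40 ± 0.07 on the log2 scale (adjusted p = 9.05e-05). The call held in all 9 other settings and without any 1 library, with values from 0.28 to 0.47. The other islet markers were also higher in these sh1/2 libraries, at a summed 163 to 175 CPM against 52.7 to 56.2 in control, and the beta cell markers lower, at 10869 to 15475 CPM against 18945 to 19619, and their part in the difference was not tested. Bmpr1a had 222, 166 and 219 CPM against 156, 155 and 160.2 and was higher by 0.37 ± 0.08 (0.000756). This difference was 0.23 with the GC correction (adjusted p = 0.000179), and a fit of only the 6 libraries compared gave 0.38 (0.0728). It was 0.08 without the 3 libraries with the steepest GC trend, which leaves 1 sh1/2 library with DOX alone. Bmpr2, Acvr2a and Acvr2b were at 0.09 ± 0.15 (0.662), 0.11 ± 0.09 (0.386) and -0.18 ± 0.25 (0.609). Acvr2a was called higher without sh1/2 DOX replicate 2, at 0.25 (adjusted p = 0.00604).

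With activin B, 2 of 5 members were called between sh1/2 and control, where 35.2% of all genes were: Acvr2a was lower (18.3% of all genes) and Acvr2b higher (16.9%). Acvr2a had 41.0, 39.0 and 38.7 CPM in sh1/2 against 45.7, 54.3 and 49.2 in control, lower by -0.33 ± 0.09 on the log2 scale (adjusted p = 0.00692) and without overlap, as for 45.7% of all genes, and was at -0.17 (0.00186) with the GC correction and at -0.26 (0.0536) without control activin B replicate 2. Acvr2b had 1.76, 2.35 and 2.35 CPM against 1.57, 1.16 and 1.35 and was higher by 0.65 ± 0.24 (0.0374). This call was lost without the 3 libraries with the steepest GC trend (0.56, 0.0886), without the low-count filter (0.67, 0.0579), without control activin B replicate 2 (0.56, 0.139) or 3 (0.64, 0.0842), and without sh1/2 activin B replicate 2 (0.59, 0.112) or 3 (0.59, 0.110). Acvr1 was at 0.14 ± 0.07 (0.122) and passed with replicate number as a block (adjusted p = 0.0442), and Bmpr2 and Bmpr1a were at -0.21 ± 0.15 (0.284) and -0.09 ± 0.08 (0.398).

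The hairpin lines share a backbone, and with activin B they share a batch too. In that comparison 1 of 5 members was called, where 23.3% of all genes were. Acvr2b had 1.76, 2.35 and 2.35 CPM in sh1/2 and 1.34, 1.24 and 1.13 in sh2, and the difference was 0.80 ± 0.25 (adjusted p = 0.0194), which dropped out without sh2 activin B replicate 2 (0.80, 0.0605) or 3 (0.74, 0.0785) or sh1/2 activin B replicate 2 (0.73, 0.0686) or 3 (0.73, 0.0705). Acvr1 stood at 0.17 ± 0.07 (0.0776), and at 0.18 with replicate number as a block (adjusted p = 0.0199). Acvr2a was at -0.23 ± 0.09 (0.0713), and at -0.23 (0.00616) in a fit of only these 6 libraries. The sh2 line itself had no member called against control, either under DOX alone, where batch and line cannot be told apart (9.99% of all genes called), or with activin B (9.23%), and DESeq2 called none either. Its largest difference was Bmpr2 under DOX alone, 10.5, 16.2 and 20.1 CPM against 20.3, 17.9 and 23.0, at -0.39 ± 0.15 (adjusted p = 0.116, and 1 of 10 sh2 differences under an unadjusted 0.05), and at -0.61 (0.00930) without sh2 DOX replicate 3. Over all genes, 3374 of 15627 were under an unadjusted 0.05 in sh2 under DOX alone and 3237 with activin B. With the replicate block and GC correction together, Bmpr2 was called lower (-0.36, adjusted p = 0.0316) and Bmpr1a higher (0.10, 0.0110) in sh2 under DOX alone.

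**Figure D4:**
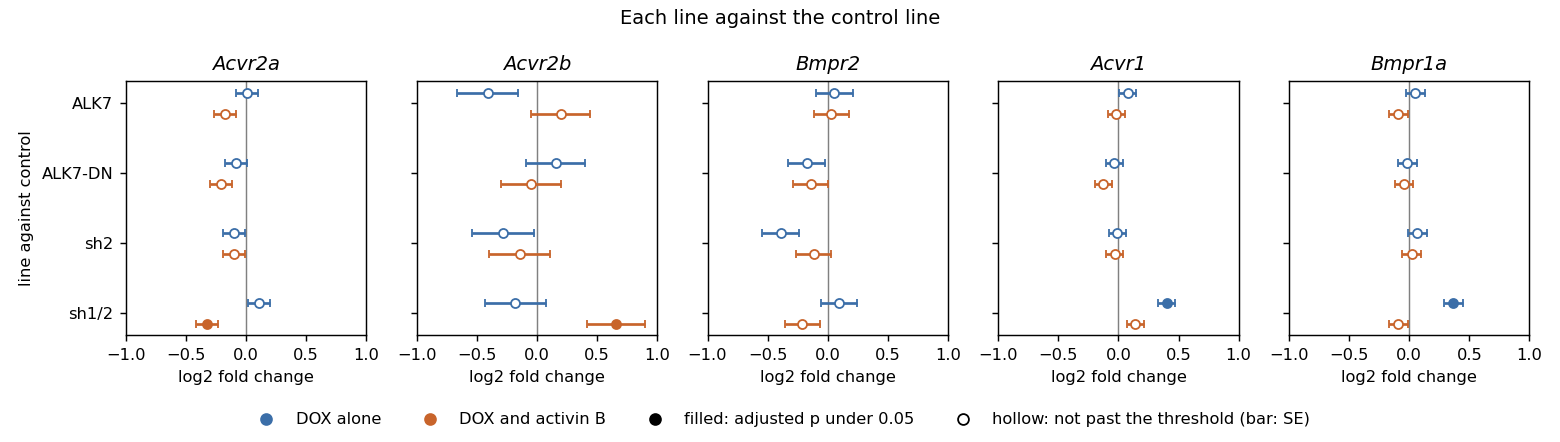
Log2 difference of each line from the control line for the 5 tested members, under DOX alone (blue) and with activin B (orange), with SE bars and filled points where the adjusted p is under 0.05. The 4 filled points are in the sh1/2 line: Acvr1 (0.40) and Bmpr1a (0.37) under DOX alone, Acvr2a (-0.33) and Acvr2b (0.65) with activin B.

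Whether the response to activin B itself differed between lines was tested as the response of each line minus that of control, comparisons that share the control libraries. No member was called for ALK7 (0.0256% of all genes called), ALK7-DN (0%) or sh2 (0.0128%), and at this background few genes of any kind passed. None of these 15 differences had an unadjusted p under 0.05, and DESeq2 called none. Of all 15627 genes, 1595 were under an unadjusted 0.05 for ALK7, 342 for ALK7-DN and 527 for sh2. At such shares, none among 15 is no result about the members. The differences of ALK7-DN and sh2 cannot be told apart from batch. For sh1/2, where 17.7% of all genes were called and 9.22% in the lower direction, the response of Bmpr1a was lower by -0.46 ± 0.11 (adjusted p = 0.0180) and that of Acvr2a by -0.43 ± 0.13 (0.0357). Neither was called with the GC correction (Bmpr1a -0.18, 0.0879; Acvr2a -0.12, 0.207), although Bmpr1a was with the GC correction and wells paired by number within lines (-0.17, 0.00283; Acvr2a -0.12, 0.119). Nor was either called in a fit of only these 12 libraries (-0.46 and -0.44, both 0.181). Without the 3 libraries with the steepest GC trend, which leaves 1 sh1/2 library with DOX alone, the values were -0.11 and -0.02. Acvr1 (-0.26 ± 0.10, 0.0627) and Acvr2b (0.84 ± 0.35, 0.0831) passed with wells paired by number within lines (adjusted p = 0.0226 and 0.00951), and Bmpr2 stood at -0.30 ± 0.21 (0.291). Acvr1 also passed with DESeq2 (-0.27, adjusted p = 0.0404), upper-quartile scaling (-0.28, 0.0489) and the replicate block across lines (-0.26, 0.0238). Leaving out 1 library ended the call of Bmpr1a in 4 of 12 cases (control activin B replicate 2, sh1/2 DOX replicates 1 and 3, sh1/2 activin B replicate 2), with adjusted p from 0.0519 to 0.0771 and values from -0.42 to -0.38. It ended that of Acvr2a in those 4 and in 3 more (control DOX replicates 1 and 3, sh1/2 activin B replicate 3), with adjusted p from 0.0551 to 0.130 and values from -0.46 to -0.35. Without sh1/2 DOX replicate 2, Acvr1 (-0.32, 0.0131) and Acvr2b (1.19, 0.00809) were called.

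In the order of the 10 groups by mean CPM, neighbours overlapped in 9 of 9 pairs for Acvr2a, Acvr2b, Acvr1 and Bmpr1a. For Bmpr2 they overlapped in 8 of 9. The means of all 5 groups with activin B (25.1 to 29.7 CPM) stood above all 5 with DOX alone (15.6 to 21.8 CPM), with no overlap at the step between sh1/2 activin B and sh1/2 DOX. The gap was small: the lowest library with activin B had 24.0 CPM (ALK7-DN replicate 2) and the highest with DOX alone 23.9 (ALK7 replicate 1). The share of all genes with such an order was not computed, so it does not set Bmpr2 apart. Acvr1 had both sh1/2 groups on top (39.0 and 38.6 CPM), followed by the other groups with activin B and then those with DOX alone. Acvr2a ran only from 39.6 ± 1.22 CPM (SD, n = 3) in sh1/2 activin B to 49.7 ± 4.34 in control activin B.

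Across the 30 libraries, Bmpr2, Acvr1 and Bmpr1a varied together, with Pearson's r of log2(CPM + 2) of 0.73 between Bmpr2 and Bmpr1a, 0.63 between Bmpr2 and Acvr1 and 0.79 between Acvr1 and Bmpr1a. Acvr2a and Acvr2b ran in opposite directions (r = -0.68). These libraries share treatments, lines and the GC trend, and the longest transcripts of Acvr2a, Bmpr2 and Bmpr1a have a GC content of 39.9%, 41.0% and 41.3% against 54.4% for Acvr2b and 48.7% for Acvr1, so r is a description only. Among 10876 genes, those most like each member were Nfat5 (r = 0.946) and Dst (0.944) for Bmpr2, Papola (0.954) and St18 (0.946) for Bmpr1a, Elf2 (0.911) and Phyhipl (0.909) for Acvr1, Pafah1b1 (0.933) and Eif4g2 (0.931) for Acvr2a, and Ggt7 (0.879) and Ttc9b (0.872) for Acvr2b. The genes most like Acvr2b had a GC content of 58.8% and 61.0%, and those most like Acvr2a 40.5% and 43.2%.

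The other receptors of the family moved in their own ways with activin B. Acvrl1 rose in all 5 lines, by 1.09 ± 0.21 (ALK7) to 1.66 ± 0.21 (sh1/2) on the log2 scale from a low level, 0.667 CPM in control cells with DOX alone and 1.55 with activin B, and it held that call in 17 of 17 other settings in each line, those without 1 library included. Acvr1c, the receptor that the hairpins target, fell in all 5 lines, by 0.59 ± 0.10 in ALK7-DN at the least and 1.05 ± 0.11 in sh1/2 at the most. Acvr1b rose in ALK7 (0.42 ± 0.08, adjusted p = 0.000449), sh2 (0.24 ± 0.08, 0.0432) and sh1/2 (0.45 ± 0.08, 0.000263), and its sh2 call was lost without the low-count filter (0.24, 0.103), with upper-quartile scaling (0.22, 0.0518) and when any 1 of the 6 sh2 libraries was left out, with values from 0.20 to 0.26. Tgfbr1 fell in sh1/2, by 0.32 ± 0.09 (0.00998), and stood at -0.26 (0.0670) without sh1/2 DOX replicate 1, at -0.23 (0.0952) without replicate 3 and at -0.08 (0.206) with the GC correction. It stood at -0.01 without the 3 libraries with the steepest GC trend, which leaves 1 sh1/2 library with DOX alone. Amhr2 was not called in any line, and Bmpr1b had too few counts to be tested.

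Around the receptors, in control cells with activin B, where 20.3% of all genes were called and 10.7% were higher, the coreceptor list had 1 of 4 tested members higher and none lower (median log2 fold change -0.25): Bambi, a decoy receptor without a kinase domain that antagonises BMP and activin signals, went from 32.9 ± 0.803 to 111 ± 5.39 CPM (SD, n = 3), 1.76 ± 0.06 on the log2 scale. Of 11 ligand genes tested 2 were higher and 1 lower (median -0.25). Tgfb1 rose from 0.320 to 1.96 CPM and Gdf11, a ligand for ACVR2A and ACVR2B, from 28.5 to 35.8 CPM (0.33 ± 0.08, adjusted p = 0.00402), and Gdf2 (BMP9) fell from 0.265 to 0.0236 CPM (0.0163), levels of a few counts. Among 6 antagonists tested, Grem1, which binds BMPs, rose by 1.71 ± 0.28 and Bmper fell by 1.25 ± 0.32 (median 0.07).

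Downstream, 3 of 7 SMADs tested rose and 1 fell in control cells, beside the same 20.3% of all genes called (median 0.09). Smad7, the inhibitory SMAD that targets receptors for breakdown, rose from 2.81 ± 0.456 to 13.7 ± 1.63 CPM (2.30 ± 0.12 on the log2 scale), Smad5, a substrate of BMP type I receptors, rose by 0.36 ± 0.07 (adjusted p = 0.000372), and Smad3, a substrate of activin type I receptors, fell by 1.14 ± 0.09 (2.94e-10). Of 15 genes of receptor turnover tested, 1 rose and 1 fell (median -0.02): Smurf1, a ubiquitin ligase for receptors and SMADs, by 0.20 ± 0.06 (0.0219), and Zfyve9 (SARA), which presents SMADs to receptors, by -0.55 ± 0.08 (5.94e-06). Of 8 BMP target genes tested, 1 rose and 4 fell (median -0.20). Id3 fell from 67.3 ± 4.47 to 20.1 ± 3.56 CPM and Atoh8 by 0.78 ± 0.21 (0.00922), while Id2 rose by 0.19 ± 0.06 (0.0170). In the other lines the same list had 3 higher and 1 lower in ALK7 (25.3% of all genes called), 1 and 4 in ALK7-DN (16.1%), 1 and 5 in sh2 (19.6%), and none higher and 5 lower in sh1/2 (36.6%), with medians of 0.07, -0.19, -0.47 and -0.75 beside medians over all genes of 0.002, -0.009, -0.011 and -0.01.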

How the data were processed

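RNA of 30 libraries (βTC3 cells, Trizol, stranded mRNA kit, per the labels' protocols) was analysed from the whole-number counts per gene that the authors deposited. The submitters' processing notes name bcl2fastq 2.17, cutadapt 1.4.2, HISAT2, mm10, featureCounts 1.4.4 and edgeR, with no statement of strand setting, annotation release or handling of multi-mapping reads. All 30 columns equalled the single-sample files. Gene positions came from GENCODE M21 (GRCm38), which held 96.6% of the identifiers.

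All 39017 genes were fitted with edgeR 4.0.16 (R 4.3.3, limma 3.58.1): filterByExpr, TMM factors, 10 group means over 30 libraries, quasi-likelihood F test and Benjamini-Hochberg adjustment over the 15627 genes tested, at 0.05. The standard error is the size of the log2 fold change divided by the square root of F. CPM used the same factors. Alternatives were DESeq2 1.42.0, other size factors, no filter, only the groups compared, replicate blocks, GC offsets (a smooth spline with 6 degrees of freedom), a batch term and leaving out libraries. Same-numbered wells of a line, with and without activin B, deviated together in 15 of 15 pairs (r of 0.102 to 0.492), so a pairing by number within lines was used as an alternative. The main test was unpaired. Over all pairs of groups, same-numbered libraries had a mean r of 0.157, against -0.079 for other numbers, so the likeness was not particular to a line. In ALK7-DN and sh2 the wells so paired were of different batches. The edgeR test was checked on simulated counts, which held neither pairing of wells nor GC trends, so the check does not cover these. Plots were made with matplotlib 3.10.9 in Python 3.11.15.

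The members and lists were chosen with earlier results of these data known. Named were the 6 members, Acvr1c as the targeted gene, the other receptors of the family, up to 3 called genes with the smallest p in control cells from each pathway list, and the 2 genes most correlated with each member with a floor of 2 CPM on the mean over libraries.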

Additional observations from a re-analysis of the deposited data

Results flagged for a closer look

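The difference between the responses of sh1/2 and control cells to activin B, tested as an interaction, picked out 3 receptor genes, each with a lower log2 response in sh1/2 than in control: Acvr2a by -0.43 (adjusted p = 0.0357, edgeR), Bmpr1a by -0.46 (0.0180) and Tgfbr1 by -0.44 (0.0347). All 3 have longest transcripts with a GC content of 39.9% to 41.3%. Bmpr2 (41.0%) and Acvr1c (40.1%) lie in the same range and were not called in this interaction, at -0.30 and -0.34. The range alone therefore did not set the 3 apart. With the GC correction Tgfbr1 stood at -0.15 (adjusted p = 0.156). Without the 3 libraries with the steepest GC trend, which leaves 1 sh1/2 library with DOX alone, it stood at -0.06. The values for Acvr2a and Bmpr1a in these settings were -0.12 and -0.18, and -0.02 and -0.11. With the GC correction and wells paired by number within lines, Bmpr1a was called (-0.17, adjusted p = 0.00283).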

How the results depend on the processing

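Over 25 tests of 5 members in 5 lines, 11 passed the threshold for activin B, against 14 with the replicate block within each line, 17 with a replicate block (across or within lines) and GC correction, and 9 to 13 without 1 library. Against control under DOX alone, the 2 calls became 1 in a fit of only the groups compared, 4 with the replicate block and GC correction, 1 without the 3 libraries with the steepest GC trend, and 2 to 3 without 1 library. With activin B, the 3 calls between lines became 5 in a fit of only the groups compared, 5 with the replicate block, 6 with GC correction, 7 with both, and 1 to 3 without 1 library (1 without control activin B replicate 2 or sh1/2 activin B replicate 2 or 3). The 2 calls for differing responses became 1 without the low-count filter, 0 with GC correction, in a fit of only the groups compared or without the 3 libraries with the steepest GC trend, 4 with the replicate block within each line, 2 with a replicate block (across or within lines) and GC correction, and 0 to 4 without 1 library. The mean response of 3 lines had 3 calls, and 3 to 5 without 1 library. These member counts stand without the share of all genes called in the same setting. The number of all genes called also moved widely between settings (ranges below), so these counts are no result about the members. A model with a batch term gives 1 common response in place of 5, so it was counted with the mean response. With the length of the longest transcript, levels in control cells under DOX alone moved from 0.391 to 0.483 CPM per kilobase for Acvr2b, from 1.14 to 1.58 for Bmpr2, from 6.04 to 8.86 for Acvr1 and from 24.7 to 26.4 for Bmpr1a.

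Signs turned for these log2 values. With GC correction, alone, with the replicate block and with the block within lines, the response of Bmpr1a in sh1/2 was 0.119, 0.119 and 0.119, that of Acvr2a in ALK7 0.016, 0.016 and 0.016, that of Acvr2a in ALK7-DN -0.015, -0.015 and -0.015, that of Acvr2b in sh2 0.0084, 0.016 and 0.019, and the mean response of Acvr2a 0.031, 0.031 and 0.032. With GC correction, without and with the replicate block, sh1/2 minus control under DOX alone was -0.042 and -0.039 for Bmpr2 and -0.048 and -0.049 for Acvr2a, sh1/2 minus control with activin B was 0.055 and 0.055 for Bmpr1a, and sh1/2 minus sh2 with activin B was 0.0056 and 0.0091 for Bmpr2. Without the 3 libraries with the steepest GC trend, the response in sh1/2 was 0.060 for Acvr2a and 0.178 for Bmpr1a, the mean response of Acvr2a was 0.035, and sh1/2 minus control under DOX alone was -0.175 for Bmpr2, -0.237 for Acvr2a and 0.287 for Acvr2b. With upper-quartile scaling the response of Acvr1 in sh1/2 was -0.0019. Without 1 library, the response of Acvr2b in control ran from -0.280 to 0.013 and in sh2 from -0.153 to 0.163, that of Acvr2a in ALK7 from -0.062 to 0.00030 and in ALK7-DN from -0.027 to 0.069, and that of Acvr1 in sh1/2 from -0.037 to 0.075, while sh1/2 minus control under DOX alone ran from -0.538 to 0.027 for Acvr2b. The cause was not tested. Pairing by number, without GC correction, changed no call of a member beyond those given beside the results.

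Over all genes, the number called ranged widely over the other settings that leave out no single library. For activin B it ran from 1734 to 5309 in control (3180 as reported), 3434 to 6116 in ALK7 (3953), 2074 to 4550 in ALK7-DN (2515), 2597 to 5439 in sh2 (3070) and 1476 to 7435 in sh1/2 (5723). Against control under DOX alone it ran from 159 to 1304 in ALK7 (310), 25 to 499 in ALK7-DN (151), 863 to 3420 in sh2 (1561) and 2430 to 7314 in sh1/2 (5934), and with activin B from 46 to 1768 (708), 11 to 792 (258), 440 to 3115 (1443) and 3820 to 6994 (5499) in the same order of lines. It ran from 281 to 1089 for ALK7-DN against ALK7 (383), from 2971 to 5492 for sh1/2 against sh2 (3643), and for the response minus that of control from 0 to 410 in ALK7 (4), 0 to 3 in ALK7-DN (0), 0 to 19 in sh2 (2) and 45 to 5956 in sh1/2 (2768). Depth limits Acvr2b most, at 21 to 84 counts a library, and Tgfbr2 could not be tested.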
